A study of Mus musculus with 4 samples.

Results

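Gene expression in the suprachiasmatic nucleus (SCN) of hypophysectomized mice was compared between early night and early day. The SCN is a paired cell group of the hypothalamus, and hypophysectomy (HPX) is the removal of the pituitary gland. The comparison is the HPX array at Zeitgeber time (ZT) 14 minus the HPX array at ZT2, where ZT counts hours from lights on, with 12 h of light in each cycle and 12 h of dark. Genes were kept when the higher of their HPX values reached the median of all genes' higher values, a floor of 5.96 on the log2 scale, and this kept 11090 of the 22180 genes that have a probeset of their own. The floor used the HPX level but not the direction of change. The 5 genes just inside it had night changes from -0.35 to 0.20 and the 5 just outside from -0.57 to 0.38, both as log2 differences. Of the 11090 genes, 10507 were read by 1 probeset and 583 by the mean of several.

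The study holds 4 groups of 1 Affymetrix array each: HPX_ZT2, HPX_ZT14, non-HPX_ZT2 and non-HPX_ZT14. Mice of all groups lived in the same light cycle, and the label of the non-HPX mice does not say whether they had a sham operation. Laser microdissection was used to take the SCN, and tissue was pooled from 10 animals at each time, without a statement of how these divide between the surgical states. Biotin-labelled cDNA was prepared from 5.5 µg of fragmented cDNA. For the strain, sex and age of the mice and the time since surgery, nothing is given in the labels. Each value is thus 1 pool on 1 array, the spread between animals was not measured, and the HPX night change has no replicate check and no p-value of its own.

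The SCN clock is a feedback loop. The activators CLOCK and BMAL1 (gene Arntl) bind E-boxes and switch on Per, Cry, Nr1d1 and Dbp genes, whose products then repress the activators or act on further targets. Neurons of the SCN make GABA together with peptides such as VIP, arginine vasopressin and prokineticin 2, which couple the cells and carry time of day to the rest of the brain. Light reaches the SCN from the retina and acts there through calcium, cAMP and MAP kinase pathways. The pituitary secretes the hormones that drive the adrenal, thyroid and gonads, so its loss removes most circulating glucocorticoid and thyroid hormone.

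Several markers of the SCN were present, together with markers of glia. Vip, the peptide of the light-receiving core, stood at 11.75 in HPX_ZT2 and 11.78 in HPX_ZT14, and the SCN transcription factor genes Six6 (8.70 and 8.51), Lhx1 (8.07 and 8.44) and Six3 (7.08 and 7.05) were above the floor at both times. All 6 GABA neuron markers with a probeset were also above it. On the wider lists, 10 of 15 measured SCN transcription factor genes and 14 of 19 SCN peptide genes were above the floor. So were 12 of 12 astrocyte markers and 12 of 13 oligodendrocyte markers. Of 3 markers of glutamate neurons, 1 reached the floor (Slc17a6), and 0 of 4 measured blood cell markers did. Across all 41345 probesets the medians of the arrays lay between 5.45 and 5.52, and the SD between 2.03 on HPX_ZT2 and 2.06 on the other arrays at most.

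At night 106 of the 11090 genes were at least 1.5-fold higher in HPX (0.956% of the genes) and 96 at least 1.5-fold lower (0.866%). At 2-fold or more there were 9 and 15. The most displaced gene on either side was Rasd1 at 10.2-fold higher and Prok2 at 11.1-fold lower. Over all 11090 genes the night change had a median of 0.04 and an SD of 0.235 (log2), and 58.6% of the values were above 0. Called genes were 52.5% higher as deposited, 47.5% higher after cyclic loess between the arrays and 34.8% higher once the median change was set to 0, so the balance between higher and lower genes depends on the scaling. Over 5 bins of equal size by level, 3.38% of the genes in the dimmest bin were past 1.5-fold and 1.17% to 1.67% in the others. In 29 of the 106 and 40 of the 96 genes, 1 of the HPX values lay below the floor.

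**Figure D1:**
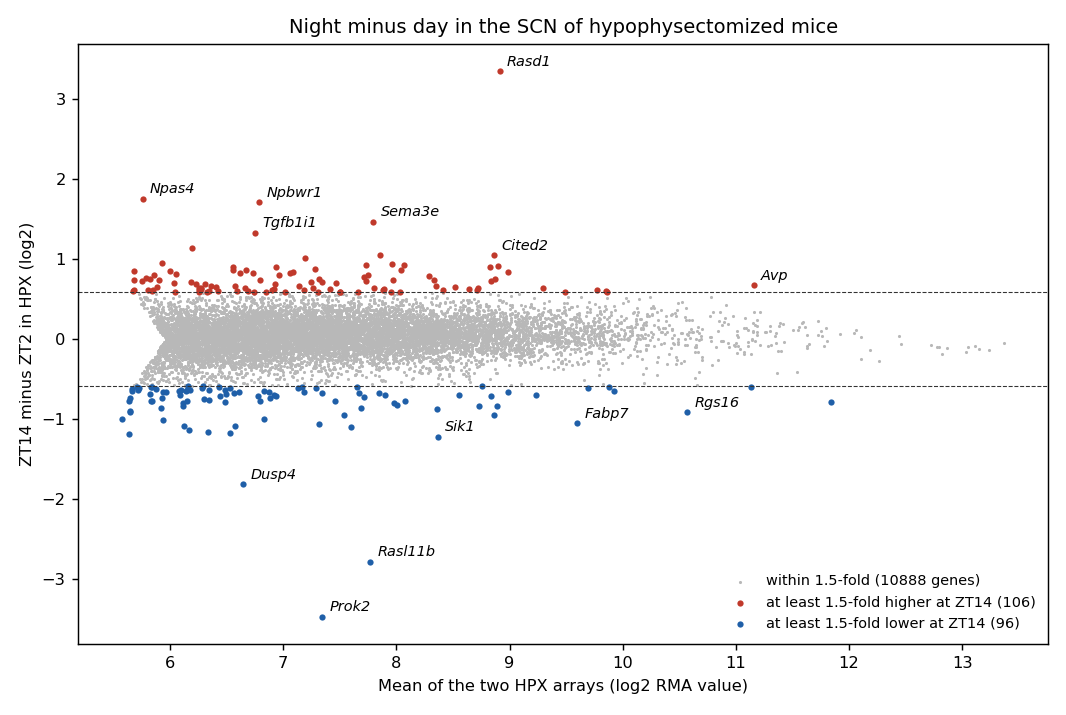
Night minus day in HPX (vertical axis, log2) against the mean of both HPX arrays (horizontal axis, log2 RMA value), 1 point per gene; dashed lines mark 1.5-fold. The 106 higher genes are red and the 96 lower genes blue, and the empty wedge at the left edge comes from the floor on the higher value.

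A test was possible for a change with time that both surgical states share. The 4 arrays were fitted in limma with time and surgery as additive terms, and a gene passed at a Benjamini-Hochberg adjusted p of at most 0.05 (two-sided). It passed 63 genes (0.568%), 24 of them higher at night (0.216%) and 39 lower (0.352%), and of the 106 and 96 genes above it passed 24 and 37. "Rose" and "fell" are used here for these genes, and adjusted p-values are from this fit. The fitted change is the mean of the HPX and non-HPX night changes. The number passing among genes chosen by their HPX change is therefore raised by that choice and is no separate support for the HPX list. The fit has 1 residual degree of freedom, which is the difference in night change between the states, so a gene that moved in HPX alone cannot pass. It also depends on the floor: fitted to all 22180 genes it passed 1 gene, Prok2.

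**Figure D2:**
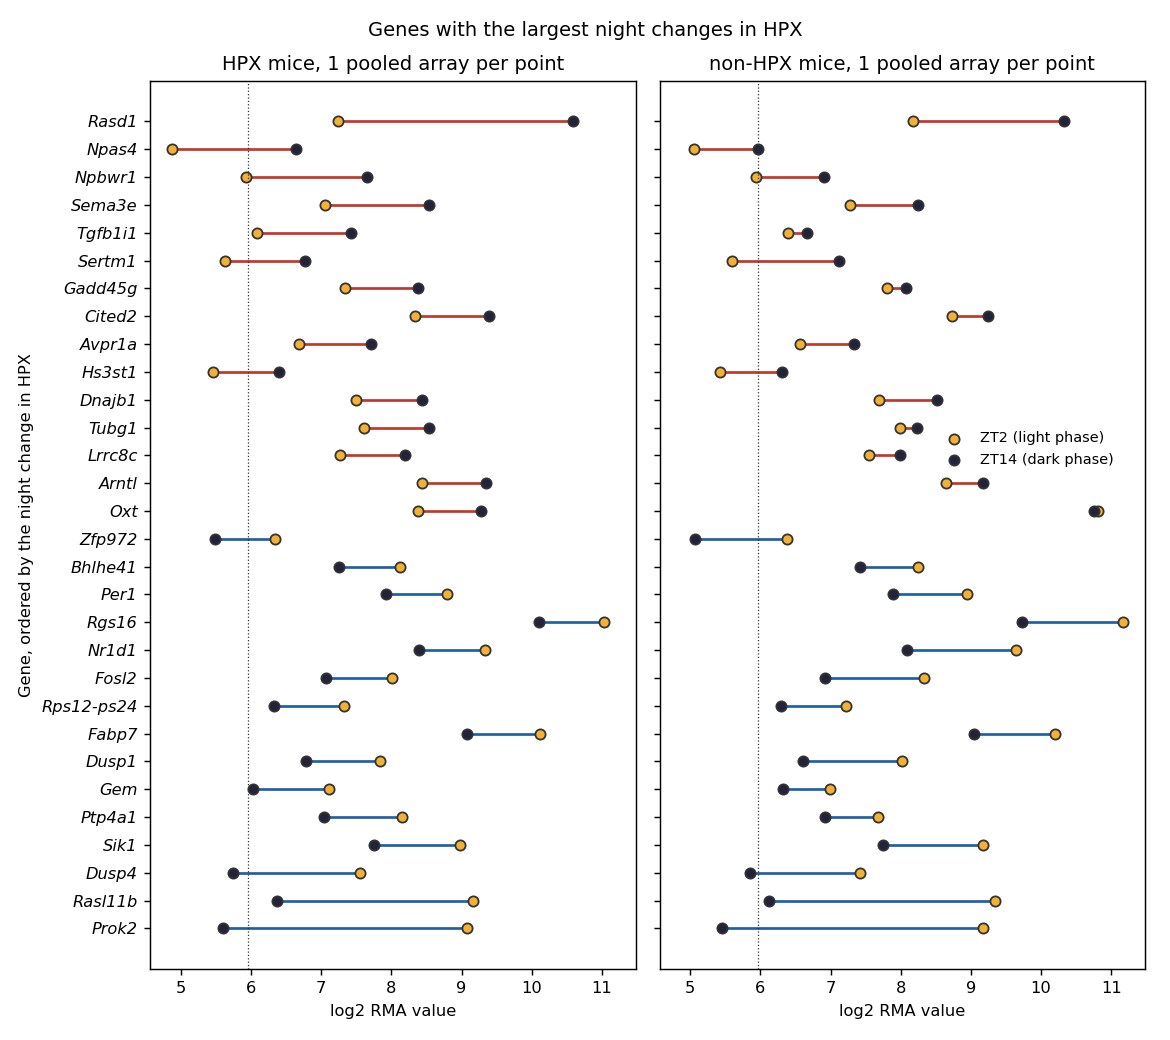
Log2 RMA values (horizontal axis) at ZT2 (orange) and ZT14 (dark) in HPX (left) and non-HPX mice (right) for the 15 genes highest and the 15 lowest at night in HPX, 1 pooled array per point. The dotted line is the floor of 5.96; Rasd1 stands at the top with 10.6 at ZT14 in HPX, and Prok2 at the bottom with 5.61.

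The core clock genes of HPX mice differed between night and day in both directions. Of 9 clock repressor genes, 5 fell and 1 rose, beside 0.352% and 0.216% of all genes. Their median change was -0.70 against 0.04 for all genes. Per1, a light-inducible period gene, read 8.79 in HPX_ZT2 and 7.92 in HPX_ZT14, beside 8.95 and 7.89 in non-HPX (adjusted p = 0.00695). Nr1d1, which encodes the repressor REV-ERB alpha, read 9.34 and 8.39 in HPX, beside 9.65 and 8.09 in non-HPX (adjusted p = 0.00667). Both day arrays were above both night arrays for each of these genes. Bhlhe41 fell by 0.86, Nr1d2 by 0.70 and Ciart, which encodes a repressor of CLOCK and BMAL1, by 0.70 in HPX (adjusted p = 0.00864, 0.0492 and 0.022). Cry1, the late-phase repressor, was the member that rose, from 7.35 to 8.14 in HPX and from 7.14 to 7.99 in non-HPX (adjusted p = 0.00886). Per3 (0.06), Cry2 (0.33) and Bhlhe40 (-0.07) did not pass.

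On the activating side, Arntl rose from 8.44 to 9.35 in HPX and from 8.65 to 9.18 in non-HPX (adjusted p = 0.0426). Its partner Clock differed by 0.15 and the related Npas2 by 0.51 in HPX, and neither passed. The retinoid-related receptor gene Rorb, an SCN-enriched relative of the activator Rora, differed by -0.27 and Rora by 0.08. The 6 activator genes had a median of 0.11. Among 7 genes of clock output factors and kinases, Dbp, the PAR-domain factor driven by E-boxes, fell from 9.19 to 8.49 in HPX and from 9.37 to 8.62 in non-HPX (adjusted p = 0.0187). The other PAR-domain factors Tef (-0.16) and Hlf (-0.25), their antagonist Nfil3 (0.20) and the kinase gene Csnk1e (0.27) did not pass.

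Promoter sequence was read for the genes that moved, since several belong to the E-box loop. RefSeq (GRCm38.p6) gave the window from 250 bases before to 50 after the start site for 74 of the 106 higher and 55 of the 96 lower genes. Both strands were searched for the E-box CACGTG, the cAMP response element TGACGTCA, the D-box TTATGTAA or TTACGTAA, the serum response element, the ROR element and the heat shock element. An E-box was in the window of 16 of 74 higher genes (21.6%) and 11 of 55 lower genes (20.0%), beside 11.7% of the 8741 genes above the floor with a window and 8.09% of all 27025 genes in the table. The lower genes with it included Per1, Prok2, Bhlhe41, Ciart, Dusp1 and Rcan1, and the higher genes Cry1, Avp, Cited2, Sema3e and Gadd45g, so the motif was present in genes of both directions. The cAMP response element was in 0 of 74 higher and 3 of 55 lower windows (Dusp1, Rcan1 and Zfp874a), beside 3.63% of the genes above the floor and 2.03% of all. The D-box was in 0 higher and 3 lower windows (Coq10b, Ptgds and Zfp874a), beside 0.812% and 1.23%. The ROR element was in 1 called gene, Arntl, beside 0.183% and 0.459%. The heat shock element was in 0 of 74 higher and 0 of 55 lower windows, beside 0.549% and 0.662%. These matches are letters in a window and not measured binding. Both genes of the loop that rose are among the 5 windows printed here, which were chosen after their values and matches were seen. The others show the gene of the largest fall, a repressor with 3 E-boxes, and a gene with an E-box and a cAMP response element. All 5 windows are written 5′ to 3′ on the strand of the gene, with the motifs in capitals.
Prok2, chr6:99726343-99726642 (minus strand): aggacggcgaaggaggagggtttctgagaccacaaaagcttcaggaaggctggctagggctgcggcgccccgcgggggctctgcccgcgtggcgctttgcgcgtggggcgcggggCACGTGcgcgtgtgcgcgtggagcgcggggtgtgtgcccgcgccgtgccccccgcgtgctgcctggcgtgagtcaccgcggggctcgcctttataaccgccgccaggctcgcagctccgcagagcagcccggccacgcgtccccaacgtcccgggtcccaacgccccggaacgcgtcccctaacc
Ciart, chr3:95882179-95882478 (minus strand): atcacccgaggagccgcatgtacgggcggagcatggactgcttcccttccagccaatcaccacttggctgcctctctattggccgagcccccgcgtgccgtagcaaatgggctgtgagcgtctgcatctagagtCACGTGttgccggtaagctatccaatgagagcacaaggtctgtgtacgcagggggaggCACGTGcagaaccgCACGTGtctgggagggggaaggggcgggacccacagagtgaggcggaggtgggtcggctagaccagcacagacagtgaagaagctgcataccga
Dusp1, chr17:26508423-26508722 (minus strand): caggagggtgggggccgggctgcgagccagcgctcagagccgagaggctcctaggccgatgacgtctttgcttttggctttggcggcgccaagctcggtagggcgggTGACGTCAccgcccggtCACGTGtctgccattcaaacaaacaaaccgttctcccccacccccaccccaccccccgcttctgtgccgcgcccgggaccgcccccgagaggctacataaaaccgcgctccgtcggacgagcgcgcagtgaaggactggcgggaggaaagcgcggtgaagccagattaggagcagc
Cry1, chr10:85185005-85185304 (minus strand): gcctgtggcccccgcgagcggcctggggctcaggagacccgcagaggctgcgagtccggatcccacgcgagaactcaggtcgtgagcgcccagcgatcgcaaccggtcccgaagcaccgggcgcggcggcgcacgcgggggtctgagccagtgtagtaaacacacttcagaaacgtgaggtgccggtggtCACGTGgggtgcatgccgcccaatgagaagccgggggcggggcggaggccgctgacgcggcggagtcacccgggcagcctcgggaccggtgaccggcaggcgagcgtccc
Arntl, chr7:113207261-113207560 (plus strand): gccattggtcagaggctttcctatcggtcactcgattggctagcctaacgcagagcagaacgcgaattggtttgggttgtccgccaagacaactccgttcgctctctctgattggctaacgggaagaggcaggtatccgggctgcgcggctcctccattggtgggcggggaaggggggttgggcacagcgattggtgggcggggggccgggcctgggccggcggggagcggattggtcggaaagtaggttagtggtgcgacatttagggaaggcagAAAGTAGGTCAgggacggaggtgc

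In these windows the E-box of Prok2 began at -135 from the start site and that of Cry1 at -60, and Ciart had them at -116, -58 and -44. In Dusp1 the cAMP response element at -143 was followed by the E-box at -126. The ROR element match of Arntl, a type of site through which REV-ERB proteins repress genes, began at base 27 of the transcript.

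Peptide genes of the SCN were led by Prok2, which encodes the output peptide prokineticin 2. It read 9.08 in HPX_ZT2 and 5.61 in HPX_ZT14, beside 9.17 and 5.45 in non-HPX. The fall was 11.1-fold in HPX and 13.2-fold in non-HPX (log2 change over both states -3.60, SE 0.118, adjusted p = 4.96e-07), and since both night values lie below the floor its size is less certain than its direction. Avp, which encodes arginine vasopressin, was 1.59-fold higher at night in HPX, with 10.82 and 11.50, whereas the non-HPX values were 11.29 and 11.33 (adjusted p = 0.577). The lowest of the 4 Avp values was HPX_ZT2. Adcyap1, the gene of the peptide PACAP, was at 5.45 and 6.20 in HPX and at 5.74 and 6.05 in non-HPX (adjusted p = 0.196). The core peptides differed less: Vip by 0.03, Grp by -0.25 and Nms, neuromedin S, by -0.38 in HPX. Of 14 peptide genes above the floor, 1 fell and 0 rose, beside 0.352% and 0.216% of all genes, and the list median was 0.05.

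The list of receptor genes was not limited to receptors for these peptides. In HPX 9 of its 10 genes above the floor were above 0 at night, beside 58.6% of all genes. Of the 10 genes 2 rose, beside 0.216% of all genes, and the list median was 0.36 in HPX and 0.19 in non-HPX. Npbwr1, the receptor for neuropeptides B and W, rose from 5.93 to 7.65 in HPX and from 5.94 to 6.91 in non-HPX (adjusted p = 0.007). Avpr1a, the V1a vasopressin receptor, rose from 6.69 to 7.70 and from 6.57 to 7.34 (adjusted p = 0.00864). For both genes the day values were nearly equal in the 2 states and the night value was higher in HPX. The VIP receptor gene Vipr2 differed by 0.36, the gastrin-releasing peptide receptor gene Grpr by 0.36, the prokineticin receptor gene Prokr2 by 0.38 and the orphan receptor gene Gpr176 by 0.49, and none of these passed. Galr1, a galanin receptor, was the lower one at -0.45.

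Regulators of G protein signalling and Ras-like GTPases included Rasd1 and Rasl11b, the highest and the second lowest of the named genes at night in HPX. Rasd1, a Ras-like protein known for induction by dexamethasone and for its part in how the clock responds to light, read 7.24 in HPX_ZT2 and 10.59 in HPX_ZT14. In non-HPX it read 8.17 and 10.33. It rose 10.2-fold in HPX and 4.45-fold in non-HPX (log2 change over both states 2.75, SE 0.221, adjusted p = 0.000659). HPX minus non-HPX was -0.94 at ZT2 and 0.26 at ZT14, so most of the gap between these folds lay at ZT2. Rasl11b, another Ras-like gene, fell from 9.16 to 6.38 in HPX and from 9.34 to 6.13 in non-HPX (adjusted p = 3.86e-06). Gem, a GTPase that inhibits voltage-gated calcium channels, fell from 7.11 to 6.03 in HPX and by 0.68 in non-HPX (adjusted p = 0.015). Rgs16, the SCN regulator of inhibitory G proteins, fell from 11.03 to 10.11 in HPX and from 11.17 to 9.72 in non-HPX (adjusted p = 0.00667). In all, 1 of 12 genes of this list rose and 3 fell, beside 0.216% and 0.352% of all genes. The other 8 lay between -0.28 and 0.33 with none passing.

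Immediate early genes, which report recent activity or stimulation, differed in both directions. Npas4, the calcium-induced transcription factor, rose from 4.88 to 6.64 in HPX and from 5.05 to 5.97 in non-HPX, with both day values below the floor (adjusted p = 0.00864). Fosl2 fell from 8.01 to 7.06 in HPX and from 8.33 to 6.91 in non-HPX (adjusted p = 0.00603), and Nr4a2 fell by 0.58 in HPX (adjusted p = 0.0282). Jun was 1.58-fold higher at night in HPX, with 6.80 and 7.47, and 7.51 and 7.42 in non-HPX, so that HPX_ZT2 stood alone below the other 3 arrays (adjusted p = 0.732). Fos (-0.46), Junb (-0.16), Egr1 (0.33) and Arc (0.18) did not pass. Over the 15 genes above the floor, 1 rose and 2 fell, beside 0.216% and 0.352% of all genes, with a list median of -0.16.

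A list of signalling brakes held kinase, phosphatase, phosphodiesterase and other inhibitor genes. Of its 14 genes above the floor, 3 fell and 0 rose, beside 0.352% and 0.216% of all genes. Dusp4, a phosphatase of nuclear MAP kinases, fell from 7.56 to 5.74 in HPX and from 7.42 to 5.86 in non-HPX (adjusted p = 0.00025). Sik1, the salt-inducible kinase that limits the clock's response to light, fell from 8.98 to 7.76 and from 9.17 to 7.75 (adjusted p = 0.00119). Dusp1 fell from 7.84 to 6.79 and from 8.02 to 6.61 (adjusted p = 0.00299). For each of these genes the night value of HPX lay within 0.18 of that of non-HPX. The list median was -0.24, and among those that did not pass were Spry4 (-0.44), Pde4d (-0.45) and Pde10a (-0.43).

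Other genes at the head of the ranking belong to no list. Sema3e, a secreted axon guidance cue, rose from 7.06 to 8.53 in HPX and from 7.28 to 8.25 in non-HPX (adjusted p = 0.00579). Sertm1, a small transmembrane protein gene, rose by 1.14 in HPX and by 1.53 in non-HPX (adjusted p = 0.00217), and Hs3st1, a heparan sulfate sulfotransferase gene, by 0.95 and 0.88 (adjusted p = 0.007). Cited2, a partner of the coactivators CBP and p300, rose from 8.34 to 9.39 in HPX and from 8.74 to 9.24 in non-HPX (adjusted p = 0.0489). Fabp7, the brain fatty acid binding protein found in astrocytes and radial glia, fell from 10.12 to 9.07 in HPX and from 10.20 to 9.05 in non-HPX (adjusted p = 0.00299). The phosphatase gene Ptp4a1 fell 2.14-fold in HPX and 1.69-fold in non-HPX (adjusted p = 0.00864) and the zinc finger gene Zfp972 1.81-fold and 2.48-fold (adjusted p = 0.007). Rps12-ps24, a ribosomal protein pseudogene, fell 1.99-fold and 1.91-fold (adjusted p = 0.00667); pseudogenes and zinc finger families share sequence with other genes, so which transcript was read is uncertain for both.

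The HPX list was set beside the night change of non-HPX mice, which uses neither HPX array. In non-HPX 45 of the 11090 genes were at least 1.5-fold higher at night (0.406%) and 71 lower (0.64%). Both lists held 22 higher genes, which are 20.8% of the HPX list and 48.9% of the non-HPX list, and 34 lower genes, 35.4% and 47.9%. No gene was past 1.5-fold in opposite directions. A non-HPX value of the same sign was found for 85 of the 106 higher genes (80.2%), with a median of 0.27 against 0.68 in HPX. The same held for 81 of the 96 lower genes (84.4%), with medians of -0.33 and -0.71. Of all genes, 42.1% were above 0 in non-HPX, so a value below 0 was the more common one there. The HPX medians are set by the choice of the genes. Over all 11090 genes the HPX and non-HPX night changes had a Pearson correlation of 0.31 and a Spearman correlation of 0.15. Taken from the other side, the 45 genes higher in non-HPX had a median of 0.51 in HPX and 38 were above 0. The 71 lower genes had -0.58 and 65 were below 0, while 58.6% of all genes were above 0 in HPX.

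**Figure D3:**
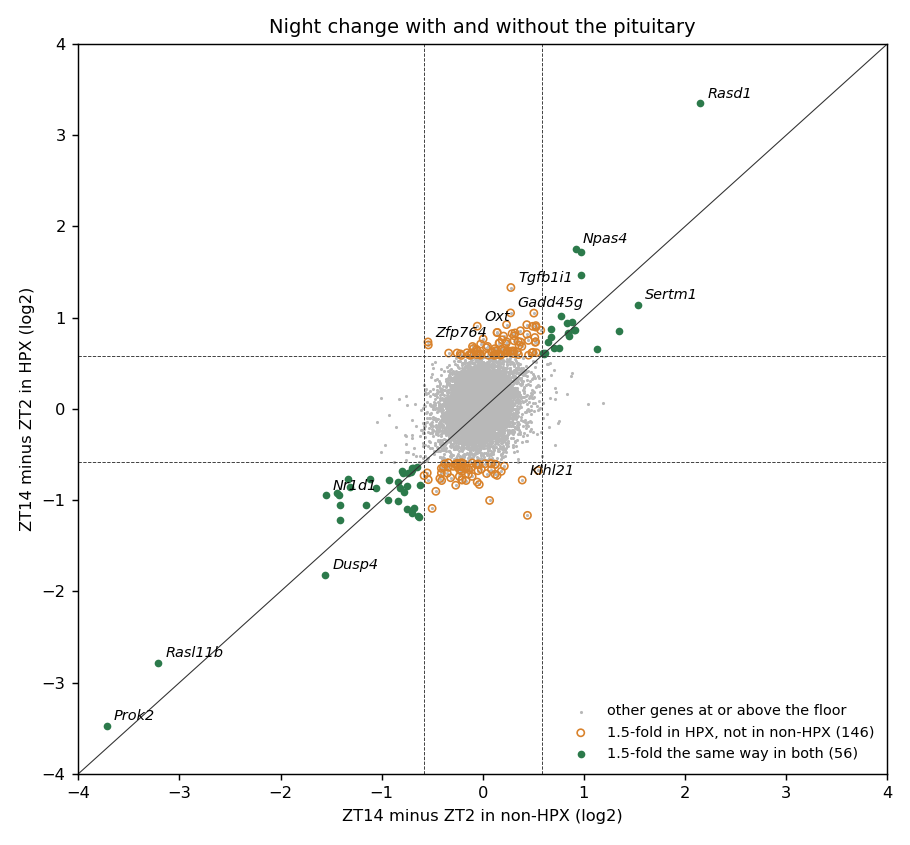
Night minus day in HPX (vertical axis, log2) against the same in non-HPX (horizontal axis, log2), 1 point per gene above the floor; dashed lines mark 1.5-fold and the diagonal marks equal changes. The 56 genes past 1.5-fold the same way in both states are green. The 146 genes past it in HPX and not in non-HPX are orange. Of the green and orange genes, 85 of the 106 higher in HPX were above 0 in non-HPX, beside 42.1% of all genes. Of the 96 lower in HPX, 81 were below 0 in non-HPX.

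Another 84 higher and 62 lower genes were past 1.5-fold in HPX and not in non-HPX. With 1 array per group the difference between the states could not be tested for a gene, and a gene past the threshold in 1 state is not shown to differ from the other. For the 84 higher genes, HPX lay below non-HPX at ZT2 (median -0.29) and above it at ZT14 (median 0.24), and in 49 of them the gap was larger at ZT2. For the 62 lower genes the medians were 0.27 and -0.25, with the larger gap at ZT2 in 30. These gaps are parts of the difference that chose the genes. The whole HPX pair was also more dispersed, with an SD over genes of 0.235 against 0.191 for the night change in non-HPX.

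Among the genes of this kind with the largest HPX values, Tgfb1i1, which encodes a focal adhesion adaptor, read 6.09 and 7.42 in HPX and 6.39 and 6.67 in non-HPX (adjusted p = 0.199). Gadd45g, a growth arrest gene, read 7.33 and 8.39 in HPX and 7.80 and 8.08 in non-HPX (adjusted p = 0.2). Tubg1, gamma tubulin, differed by 0.92 and 0.23, and Lrrc8c, a volume-regulated anion channel subunit, by 0.92 and 0.44. In these genes the HPX arrays were the lowest and the highest of the 4, with the non-HPX arrays between them. A non-HPX change under 1.1-fold was seen for 25 of the 106 higher and 19 of the 96 lower genes. Of these, Klf10, a zinc finger factor induced by TGF-beta, read 5.40 and 6.17 in HPX and 5.81 and 5.81 in non-HPX. Ubald1 differed by 0.71 in HPX and -0.02 in non-HPX, and Agbl5, a carboxypeptidase gene, by 0.68 and -0.10. On the lower side stood the zinc finger gene Zfp729a (-0.83 and -0.04), the adhesion genes Cntn5 (-0.72 and 0.12) and Il1rapl1 (-0.66 and 0.09), the sarcoglycan gene Sgcz (-0.71 and 0.04) and the peroxidase gene Gpx8 (-0.68 and -0.05). None of these passed.

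Of the higher genes whose non-HPX change was under 1.1-fold, Oxt, the oxytocin gene, had the largest change in HPX. It read 8.37 in HPX_ZT2 and 9.28 in HPX_ZT14, against 10.80 and 10.75 in non-HPX (adjusted p = 0.599). Both HPX values were below both non-HPX values, and HPX minus non-HPX was -2.43 at ZT2 and -1.47 at ZT14. Oxytocin is made in the paraventricular and supraoptic nuclei near the SCN, as vasopressin also is. Of the 14 measured markers of such other hypothalamic neurons 7 were above the floor, with Oxt among them. Their mean level, which includes Oxt, was 6.93 in HPX_ZT2 and 7.18 in HPX_ZT14. The median change was 0.15, with 4 genes above 0 and 3 below. Hdc, the histamine-synthesising enzyme, rose from 6.48 to 7.38 in HPX and from 6.59 to 7.11 in non-HPX (adjusted p = 0.0426), while Trh (-0.14), Th (-0.21) and Npy (-0.15) were lower. How far neighbouring cells in the cut tissue had a part in the Oxt and Avp values was not tested. In tissue pools, more cells of a type and more RNA per cell cannot be told apart.

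Some genes of actin and serum response factor biology were past 1.5-fold in HPX; they were picked after their values were seen, belong to no list and went both ways. Srf, the serum response factor, differed by 0.61 in HPX and 0.23 in non-HPX, and its coactivator gene Mrtfa by 0.65 and -0.06. The cytoskeletal genes Actn1 (0.74 and 0.64), Flna (0.63 and 0.27) and Actg1 (0.63 and 0.25) were higher too, whereas Myl9, a myosin light chain gene, was lower (-0.60 and -0.23). Of these 6 genes only Actn1 passed (adjusted p = 0.0259). Actg1 was read by 6 probesets, of which 5 were past 1.5-fold and 1 stood at -0.01. The serum response element was in the promoter window of 4 of 74 higher genes (5.41%: Actg1, Dgkh, Rasa4 and Srf), and of 1 of 55 lower genes (Myl9), beside 1.53% of the genes above the floor and 1.81% of all.

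Genes that respond to hormones under pituitary control were listed apart. Of 21 glucocorticoid-responsive genes measured, 11 were below the floor, which was set on the HPX level, and 10 above it. Of these 10, 0 were past 1.5-fold, beside 1.82% of all genes, 5 were above 0, and the median was 0.01 in HPX and 0.10 in non-HPX. Tsc22d3, the glucocorticoid-induced leucine zipper, read 5.90 and 5.96 in HPX, and 6.13 and 7.17 in non-HPX, where it was 1.04 higher at night. Zbtb16 read 6.29 and 6.09 in HPX, and 6.43 and 7.08 in non-HPX. In both genes the non-HPX_ZT14 array stood above the other 3, and neither passed the shared test (adjusted p = 0.437 and 0.846). Fkbp5 and Sgk1, other classical targets, were below the floor. The sign of this list's median turns when changes are centred, without a floor, with a floor at the 75th percentile, and with the brightest probeset alone. Of 12 thyroid hormone-responsive genes measured, 6 were above the floor, and of these 5 were below 0 (median -0.14 in HPX and -0.16 in non-HPX), with the largest difference in Aldh1a1 at -0.48. Of 7 pituitary hormone genes, 1 was above the floor (Lhb, 0.44 in HPX and 0.38 in non-HPX).

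The lists of metabolic and stress genes had median changes between -0.23 and 0.25. Of all genes 58.6% were above 0 at night in HPX. Among 13 cholesterol synthesis genes 11 were higher at night in HPX (median 0.23, 0.05 in non-HPX), and Sqle, squalene epoxidase, was 0.59 higher (adjusted p = 0.113). Of 13 heat shock and chaperone genes 11 were higher (median 0.25, -0.02 in non-HPX). Dnajb1, the HSP40 co-chaperone, rose from 7.49 to 8.43 in HPX and from 7.68 to 8.52 in non-HPX (adjusted p = 0.00761). It was the 1 gene of that list to pass, beside 0.568% of all genes. Hsph1 was 0.53 higher in HPX and -0.02 in non-HPX. Ribosomal protein genes were lower in 19 of 22 (median -0.23, -0.02 in non-HPX), from -0.49 for Rps28 to 0.06 for Rpl5, with 0 passing. Respiratory chain subunits had a median of -0.09 in both states.

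Interferon response genes had a median of -0.34 over 6 genes in HPX and -0.04 in non-HPX. Ifit1, an interferon-induced RNA-binding protein gene, read 6.53 in HPX_ZT2 and 5.76 in HPX_ZT14, and 5.72 and 5.51 in non-HPX, so HPX_ZT2 was above the other 3 arrays (adjusted p = 0.29). Stat2 went the other way at 0.64. On the ion channel lists, 13 of 16 potassium channel genes (median 0.16) and 11 of 15 calcium, sodium and cation channel genes (median 0.16) were above 0, from -0.28 for Scn1a to 0.38 for Hcn3 among the latter. Of all genes 58.6% were above 0. On these lists 0 were past 1.5-fold, beside 1.82% of all genes. Off these lists, and named after their values were seen, the potassium channel gene Kcnh8 rose by 0.66 in HPX and 0.70 in non-HPX (adjusted p = 0.0268), and the channel subunit gene Cacng5 was 0.63 higher in HPX and -0.05 in non-HPX. The SCN transcription factor genes had a median of -0.01, with 0 of 10 past 1.5-fold, beside 1.82% of all genes.

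**Figure D4:**
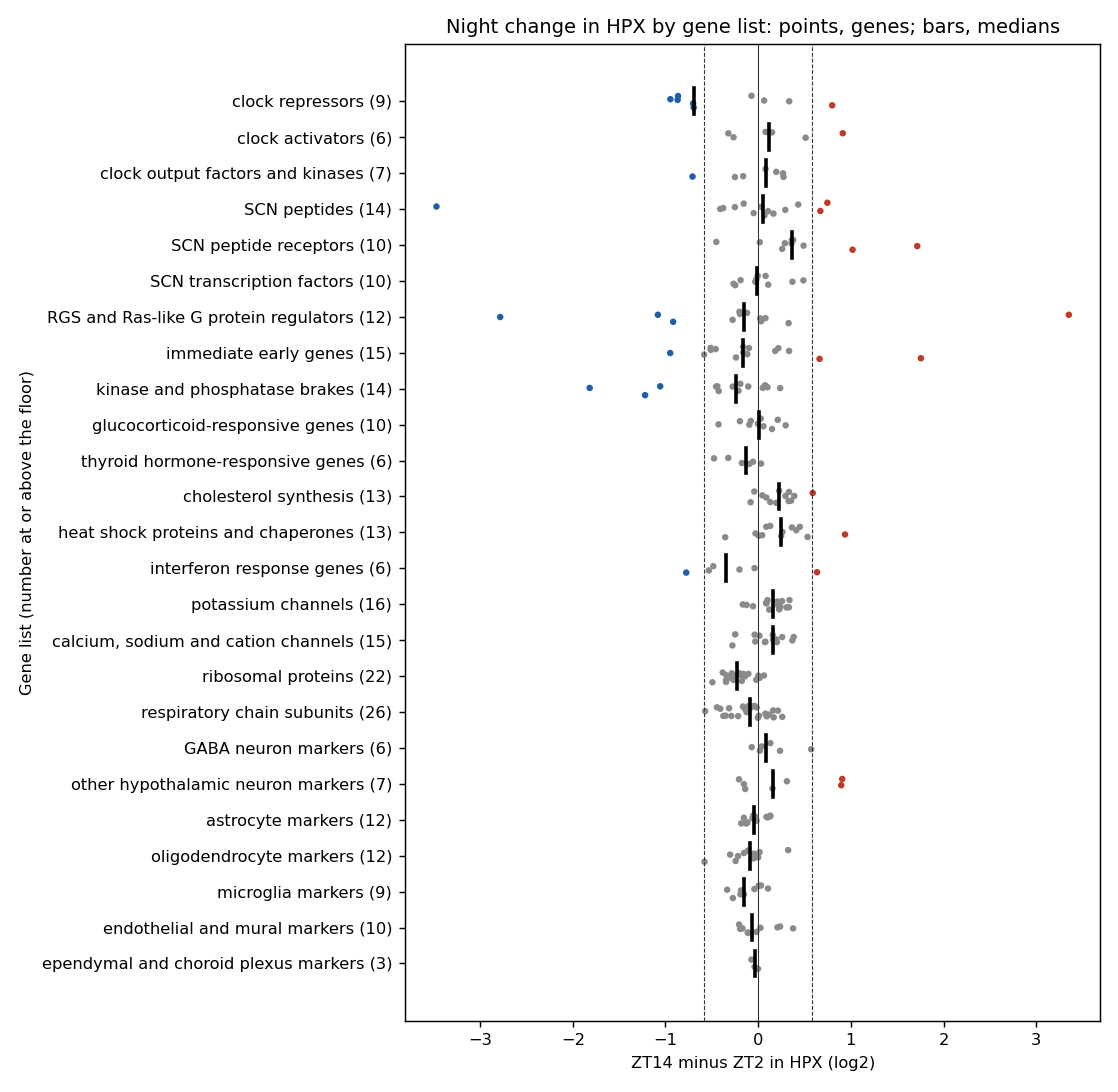
Night minus day in HPX (horizontal axis, log2) for each gene above the floor, by gene list (vertical axis, number of genes in brackets); black bars are medians, dashed lines 1.5-fold, and red and blue points genes past it. The clock repressors have the lowest median at -0.70 and the peptide receptors the highest at 0.36 among the lists shown.

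For the fixed marker lists of non-neuronal cells, the median HPX night change was -0.04 over 12 astrocyte markers, -0.08 over 12 oligodendrocyte markers, -0.15 over 9 microglia markers, -0.06 over 10 endothelial and mural markers and -0.04 over 3 ependymal markers, and 0 of these genes were past 1.5-fold, beside 1.82% of all genes. Gfap, the astrocyte filament gene, read 9.14 and 9.01 in HPX. Opalin, a myelin gene, was the farthest at -0.58. Genes of such cells that the lists leave out, named after their values were seen, were past 1.5-fold: besides Fabp7, the myeloid gene Ly86 fell by 0.67 in HPX (adjusted p = 0.0259). The prostaglandin D synthase gene Ptgds (-0.71), the matrix gene Dcn (-0.66) and the smooth muscle gene Myl9 (-0.60) were lower, Gpr17 of the oligodendrocyte lineage was higher (0.83), and these did not pass. The choroid plexus genes Ttr and Folr1 were below the floor. GABA neuron markers had a median of 0.09, with 5 of 6 above 0, beside 58.6% of all genes.

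Of 135 microRNA genes above the floor (478 measured), 6 exceeded 1.5-fold upward and 12 downward in HPX, which is 13.3% of them beside 1.82% of all genes. Their night change had an SD of 0.404 in HPX and 0.326 in non-HPX, beside 0.235 and 0.191 for all genes. The probesets read labelled cDNA of total RNA, and whether the signal came from mature microRNA or from longer precursors was not tested. Mir212, whose host transcript is known as a target of CREB in the SCN, fell from 7.11 to 5.94 in HPX and by 0.65 in non-HPX (adjusted p = 0.0187). Mir132, which lies in the same transcript, read 3.99 in HPX_ZT2, below the floor, and differed by 0.01. Mir344e fell from 6.44 to 5.43 in HPX and from 6.64 to 5.80 in non-HPX (adjusted p = 0.00719). Mir383 fell from 6.10 to 5.19 and from 6.40 to 5.62 (adjusted p = 0.00864). The HPX_ZT14 values of Mir212, Mir344e and Mir383 lay below the floor. Mir466h, Mir669m-1, Mir669a-3 and Mir467c, members of a repetitive family with near-identical copies, were also lower and are uncertain for that reason.

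All 6 of the higher microRNA genes lay in the imprinted cluster on chromosome 12 between Mir673 and Mir409, a group chosen after its values were seen. Of the 43 genes of the cluster that were measured 33 were above the floor. Of the 33, 30 were higher at night in HPX, with a median of 0.41 and a range from -0.19 to 0.82. Of the 10 below the floor, 6 were higher. In non-HPX 26 of the 33 were above 0 with a median of 0.19, and 0 were past 1.5-fold. Mir544 read 5.64 and 6.46 in HPX (5.55 and 5.98 in non-HPX), Mir376b 6.93 and 7.69 (7.06 and 7.25), and Mir487b 7.36 and 8.10 (7.44 and 7.81). Mir494, Mir543 and Mir3070a were higher by 0.69, 0.63 and 0.62 in HPX. None of the 6 passed the shared test. The other 102 microRNA genes had a median of -0.02 in HPX, with 48 above 0, 0 past 1.5-fold upward and 12 downward. The long non-coding genes of the same locus differed less, Meg3 by -0.06 and Rian by 0.09, and the protein-coding neighbour Dlk1 by 0.40. Genes of the cluster may come from shared transcripts and are not independent of each other.

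**Figure D5:**
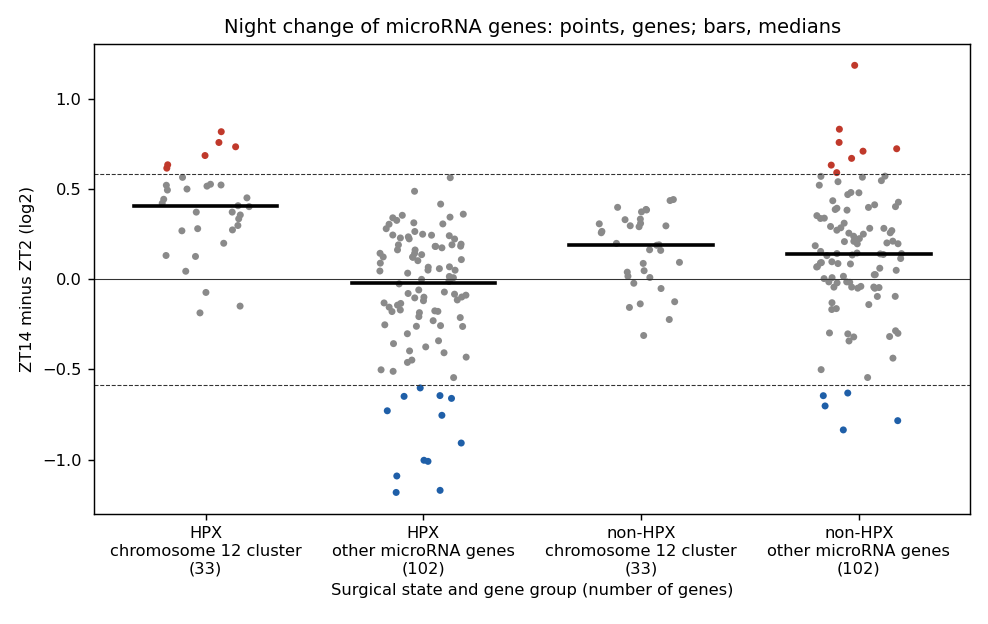
Night minus day (vertical axis, log2) of the microRNA genes above the floor, in HPX and non-HPX and split into the chromosome 12 cluster (33 genes) and the others (102 genes); bars are medians, dashed lines 1.5-fold. The cluster has a median of 0.41 in HPX and 0.19 in non-HPX.

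RefSeq held a mature sequence for 13 of the 18 microRNA genes past 1.5-fold. Those of Mir212 and of the 6 cluster genes, chosen after their values were seen, are shown, 1 arm each. They are written 5′ to 3′ with the seed, bases 2 to 8, in capitals, and positions are on GRCm38.p6. No seed occurs more than once among them.
mmu-miR-212-3p, chr11:75173443-75173464 (plus strand): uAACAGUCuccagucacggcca
mmu-miR-544-3p, chr12:109729371-109729392 (plus strand): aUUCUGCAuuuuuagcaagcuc
mmu-miR-376b-3p, chr12:109723508-109723528 (plus strand): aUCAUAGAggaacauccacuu
mmu-miR-487b-5p, chr12:109727347-109727367 (plus strand): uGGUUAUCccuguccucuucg
mmu-miR-494-3p, chr12:109715367-109715388 (plus strand): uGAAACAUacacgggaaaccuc
mmu-miR-543-3p, chr12:109717304-109717325 (plus strand): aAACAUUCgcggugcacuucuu
mmu-miR-3070-3p, chr12:109587999-109588020 (plus strand): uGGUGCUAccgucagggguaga

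Classes of non-coding RNA other than microRNA lay below 0 in HPX, in groups that were also chosen after their values were seen. Protein-coding genes had a median of 0.05 in HPX and -0.03 in non-HPX. Over 332 long non-coding RNA genes the median was -0.11 in HPX and -0.02 in non-HPX, and over 64 small nucleolar RNA genes -0.16 and -0.05, with 14 of the 64 above 0. Pseudogenes had -0.25 and -0.11 over 64 genes. Of 4 guide RNA genes of Cajal bodies, Scarna6 and Scarna10 were past 1.5-fold lower, at -0.61 and -0.60. The ribosomal protein genes lay on the same side of 0, and the relation of these classes to RNA quality or labelling on the HPX arrays was not tested.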

How the data were processed

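The authors deposited log2 values of 41345 probesets on 4 Affymetrix arrays. Per the submitters' processing notes these came from RMA (robust multi-array averaging) with Affymetrix Expression Console, whose version is not given there. RMA brings the arrays to 1 intensity distribution and thereby hides a shift common to most genes. Of the probesets, 23521 named exactly 1 gene in the platform annotation, 1814 several and 16010 were not listed there; 23328 were found in RefSeq (GRCm38.p6). Probesets of a gene were averaged, and the floor was applied to the HPX arrays. The HPX night change is a difference of 1 array each, called at 1.5-fold. The additive fit used limma 3.58.1 (lmFit, eBayes, R 4.3.3) with 1 residual and 8.86 prior degrees of freedom. Its code was run on simulated data, with noise drawn from the fit's own prior and the same change in both surgical states. That run says nothing of the spread between pools. Since prior degrees of freedom dominate, the p-values of the fit rest on a spread shared by all genes. Python 3.11.15, numpy 2.4.6, pandas 2.3.3 and matplotlib 3.10.9 did the rest. The number of arrays limits the precision.

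The genes, lists and comparisons were chosen with earlier results of these data known. Named are the 15 highest and 15 lowest genes in HPX, up to 5 per direction whose non-HPX change was under 1.1-fold, those at least 1.2-fold opposite in non-HPX, and list genes; predicted and non-coding names were left out of the ranking. Groups named otherwise are marked as chosen after their values were seen. There were 7 alternatives: cyclic loess, median-centred changes, no floor, a floor at the 75th percentile, a floor on the mean of 4 arrays, the brightest probeset alone, and a 2-fold threshold.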

Additional observations from a re-analysis of the deposited data

Results flagged for a closer look

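Among genes at least 1.5-fold apart in HPX, 3 genes outside the predicted and non-coding names ran at least 1.2-fold the opposite way in non-HPX; the difference between the states was not tested. Klhl21, a cullin adaptor gene, read 6.22 in HPX_ZT2 and 5.44 in HPX_ZT14, against 5.72 and 6.11 in non-HPX. Its HPX night change minus its non-HPX night change was -1.17. Zfp764, a zinc finger gene, read 5.54 and 6.27 in HPX against 6.51 and 5.96 in non-HPX, a difference between the changes of 1.28. Ebf1, which encodes a transcription factor of early B cells and striatal neurons, read 5.37 and 5.98 in HPX, with 5.93 and 5.59 in non-HPX, a difference of 0.95. In each of these genes 1 of the HPX values lies below the floor.

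Probesets without a single gene name hold further night differences in HPX. Of 6155 such probesets at or above the floor, 789 were at least 1.5-fold apart in HPX (12.8%), 295 upward and 494 downward. The same count for non-HPX was 489 (7.94%), 293 upward and 196 downward, and 100 were past 1.5-fold the same way in both states. What these probesets read was not analysed here.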

How the results depend on the processing

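All 52 genes named by the rule kept their direction with cyclic loess and with centred changes, and 50 stayed past 1.5-fold in both. Sqle dropped to 0.54 with cyclic loess and 0.55 with centred changes, and Ebf1 to 0.57 with centred changes. Centring moves all genes by the same amount. The other alternatives are no check of these genes, since a floor does not alter a gene's value and each named gene has 1 probeset. The counts depend on the floor and threshold. The main counts were 106 higher, 96 lower, 56 shared with non-HPX and 63 passing the additive limma fit (912 at an unadjusted p under 0.05). Without a floor they were 364, 470, 126 and 1 (1615 unadjusted), with the 75th percentile floor 54, 38, 30 and 36, and with a 2-fold threshold 9 higher, 15 lower and 8 shared. Centred changes gave 142 passing genes. With the other alternatives these counts stayed within 1.5 times the main ones. Higher genes were 43.6% of the called genes without a floor and 58.7% with the 75th percentile floor. Of 27 list medians 22 kept their sign; those of clock outputs and kinases, glucocorticoid-responsive genes, other hypothalamic markers, endothelial and mural markers, and ependymal markers turned, with main values between -0.06 and 0.15. The chromosome 12 microRNA cluster kept a median between 0.36 and 0.41 over the alternatives that give a value per gene. Its members were fixed as those above the main floor, so the alternative without a floor added no gene to it. Over all 43 measured genes of the cluster the median was 0.37, with 36 above 0. No paired analysis was possible because each group holds 1 array with replicate number 1. Leaving out a replicate would remove a whole group. Single pools, values near the floor and sequence shared between gene copies limit all of these results.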
